A study of Mus musculus with 32 samples.

Results

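Toll-like receptor and NF-kB signalling was followed through 10 genes, the receptors Tlr3 and Tlr4, the co-receptor Cd14, the adaptor Myd88, the kinase Irak1, the ubiquitin ligase Traf6, the kinase Ikbkb, the inhibitor Nfkbia and the NF-kB subunits Nfkb1 and Rela. All probes carrying 1 of these symbols were taken, which gave 13 of the 25697 probes and 10 of the 18138 gene symbols on the array. RNA came from the frontal cortex (FCtx) of 32 female F1 hybrid mice of C57BL/6J and FVB/NJ, each on its own Illumina MouseRef-8 v2.0 array. The ethanol-treated group (20 mice) drank voluntarily from either of a pair of bottles, 1 with water and 1 with 20% ethanol, in a daily session in the dark over 20 days, and their brains were taken on the day after the last session. The other 12 mice were matched controls. The sources name no transgene and no other treatment in either group, and the age of the mice is not given in the sources used here. The labels name 1 direction of the cross, whereas the methods name reciprocal crosses. The comparison asked whether voluntary drinking changed the transcripts of this pathway in the FCtx.

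Toll-like receptors recognize microbial products and molecules released by damaged cells. Tlr4 works with Cd14 at the cell surface and Tlr3 senses double-stranded RNA inside the cell. Most receptors of the family signal through Myd88 and Irak kinases to Traf6, and from there to the IKK complex, of which Ikbkb is a catalytic subunit. IKK marks the inhibitor encoded by Nfkbia for destruction, which lets dimers such as that of Nfkb1 and Rela enter the nucleus and switch on genes, Nfkbia itself among them. In brain, microglia are the main carriers of the receptors, whereas Rela and Nfkb1 are also present in neurons and astrocytes. In bulk tissue, fewer cells of a type and less RNA per cell cannot be told apart.

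The probes are 50 bases long, and a few are shown, among them neighbouring Traf6 probes that differed in detection. Of the 3 Traf6 probes, probes 2 and 1 lie side by side on the forward strand of chromosome 2, at 101540996-101541045 and 101541049-101541098 in the coordinates of the deposited table, which does not name its genome build, and 3 bases separate them. The 30 bases of each that face the other are printed 5′ to 3′ with the probe of Nfkbia and the second probe of Tlr4, none with capitals.
Traf6 probe 2, last 30 bases: gttgaagtcactcaaaaaggactaagctag
Traf6 probe 1, first 30 bases: tttctctgtgggtcctctgtgtctttgatg
Nfkbia: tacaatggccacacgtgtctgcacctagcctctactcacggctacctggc
Tlr4 probe 2: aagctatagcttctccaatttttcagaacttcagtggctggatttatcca

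The Nfkbia probe starts at base 606 of its transcript (chromosome 12, 56591795-56591844 in the table's coordinates) and the Tlr4 probe 2 at base 228 (chromosome 4, 66494933-66494982). Nfkbia is a classic target of NF-kB, so the 250 bases before its transcription start are also shown, from RefSeq's GRCm38.p6 (chr12:55492648-55492897, reverse strand). Capitals mark a match to a kappaB motif, a form of the NF-kB binding sequence, searched on both strands as GGGA and TTTCC with any 1 base between them. The match lies 29 to 20 bases before the start.
Nfkbia promoter: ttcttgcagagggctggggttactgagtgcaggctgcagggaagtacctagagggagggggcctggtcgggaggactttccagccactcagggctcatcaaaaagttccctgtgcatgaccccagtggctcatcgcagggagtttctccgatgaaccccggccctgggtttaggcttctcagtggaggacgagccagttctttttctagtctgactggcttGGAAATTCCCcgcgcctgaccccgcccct

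RefSeq promoter windows of 300 bases, 250 before and 50 after the start, were held for 6 of the 10 genes, and 2 of these contained the motif, Nfkbia and Tlr3, whose match begins 211 bases before its start. The motif was in 0.411% of all 32851 windows. A match of letters is a description and not a measured binding site.

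The arrays detected 9480 to 11544 probes each, taking a detection p-value below 0.01 as present. The median raw signal was 166 to 203 in ethanol-treated mice and 146 to 187 in controls. Control mouse C66 had the lowest value of both measures among all 32 arrays. The 4 chips held 8 arrays each. Chips 1 and 2 carried ethanol-treated mice, chip 4 carried controls, and chip 3 carried 4 ethanol-treated mice at odd positions and 4 controls at even positions. Signals were transformed to a log2 scale, quantile-normalized and compared by limma over the 10187 probes detected on at least 24 arrays, with Benjamini-Hochberg adjustment. Replicates were separate mice.

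The receptors Tlr3 and Tlr4 lay below the detection limit of the array, Cd14 and Irak1 lay around it, and the other 6 genes had 1 probe each that lay above it. Myd88, Traf6 probe 1, Ikbkb, Nfkbia, Nfkb1 and Rela were detected on all 32 arrays and entered the test. The remaining 7 probes did not. Tlr3 and both Tlr4 probes were detected on 0 of 32 arrays, with raw signals of 137 to 187 for Tlr3, 127 to 189 for Tlr4 probe 1 and 133 to 184 for Tlr4 probe 2. The lowest signal counted as detected on an array was 184 to 224 in ethanol-treated mice and 160 to 201 in controls. The neighbouring Traf6 probes differed in detection, with all 32 arrays for probe 1 and 5 for probe 2 (2 ethanol, 3 control). The third Traf6 probe, starting at base 2246 of its transcript, was detected on 0 arrays. Irak1 was detected on 6 arrays, 5 of ethanol-treated mice and 1 of a control, and on 23 arrays at a detection p-value below 0.05.

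**Figure D1:**
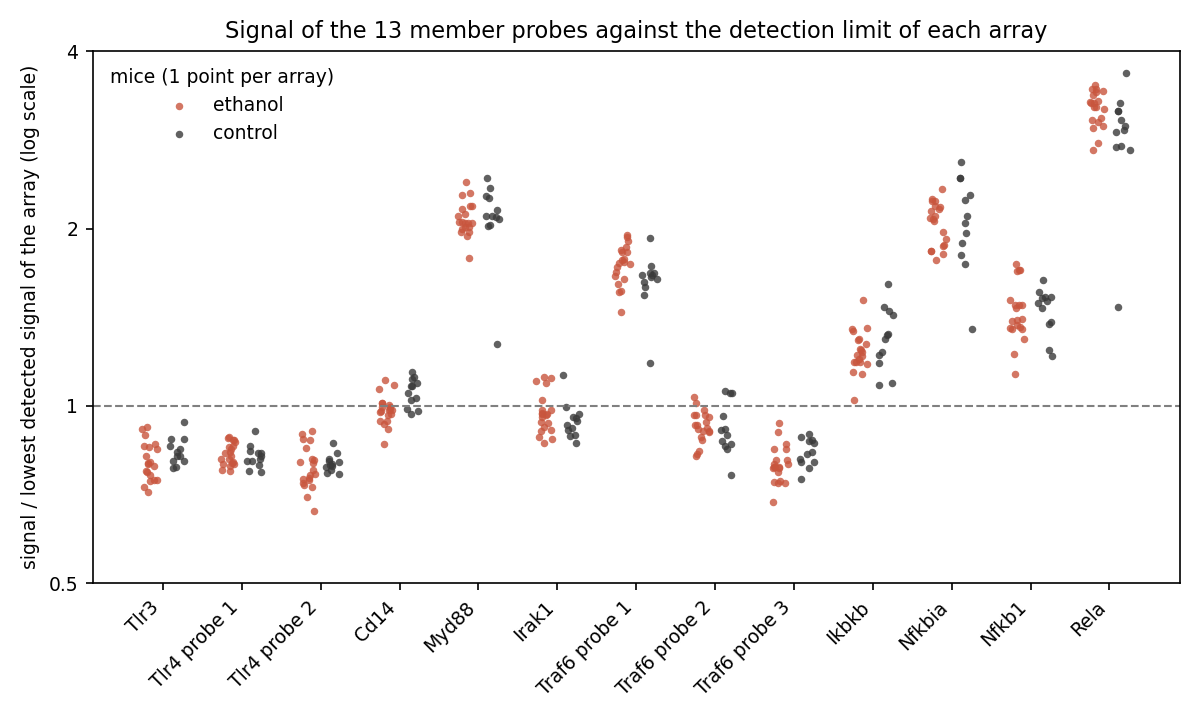
Raw signal of each of the 13 probes divided by the lowest detected signal of the same array (log axis), 1 point per mouse, ethanol-treated in red and control in dark grey. The dashed line marks the detection limit; the probes of Tlr3 and Tlr4 lie below it on all 32 arrays, those of Cd14 and Irak1 straddle it and the 6 tested probes lie above it.

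Cd14 hands bacterial lipopolysaccharide to Tlr4. It was detected on 15 arrays, 6 of 20 in ethanol-treated mice and 9 of 12 in controls, and on 30 arrays at a detection p-value below 0.05. By chip, it was detected on 1, 3, 5 and 6 of the 8 arrays of chips 1, 2, 3 and 4. On chip 3, with both groups, these were 2 of 4 ethanol-treated mice and 3 of 4 controls. Its normalized log2 value ranged from 7.09 to 7.49 (median 7.31) in ethanol-treated mice and from 7.23 to 7.70 (median 7.44) in controls, the highest being C66. The groups overlapped. Its raw signal went the other way, with medians of 200 in ethanol-treated mice and 185 in controls. For all 13 probes the raw median was higher in ethanol-treated mice, as was the median of the arrays. In a fit of all 25697 probes the call rates were 2.72% at an FDR of 1% and 9.44% at one of 10%, and Cd14 passed the second but not the first. It differed by -0.13 on the log2 scale (standard error 0.038, adjusted p = 0.0307 by limma). When arrays were scaled to 1 median the difference was -0.093 (adjusted p = 0.154 by limma). Without C66 it was -0.11 (adjusted p = 0.0791 by limma), and with chip as a fixed block -0.062 (adjusted p = 0.872 by limma). On chips 1, 2 and 4 only it was -0.16 (adjusted p = 0.0306 by limma). In these fits, in this order, 4.39%, 7.57%, 1.33% and 12.3% of all probes passed an FDR of 10%. These fits of Cd14 were added after its values were seen. The 6 other probes under the presence filter had adjusted p of 0.304 to 0.905 in the fit with all probes.

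Of the 6 members tested, 0 passed an FDR of 1% by limma, where 8.18% of all probes did. At an unadjusted p below 0.05 there were 2 (Rela and Ikbkb), where 31.9% of all probes did, and at an FDR below 10% there was 1 (Rela), where 25.5% did. The median of the 6 differences was -0.051 and that of all tested probes -0.0039 on the log2 scale. The 95% confidence intervals of the 6 ran from -0.23 to 0.21 in this fit, which had no covariate. Changes outside a range of 0.855 to 1.16-fold lay beyond all 6 of these intervals. With chip as a fixed block the intervals ran from 0.796 to 1.23-fold. With chip and position in the fit they ran from 0.777 to 1.32-fold. All these ranges are for values without background correction. With such a correction (normexp) the differences of the members were larger. Ikbkb then differed by -0.23 in place of -0.12 (adjusted p = 0.134 by limma). Rela differed by 0.15 in place of 0.12 (adjusted p = 0.0654 by limma).

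Myd88 is the adaptor shared by most Toll-like receptors. Its log2 value ranged from 8.29 to 8.72 (median 8.48) in ethanol-treated mice and from 8.27 to 8.81 (median 8.55) in controls. The range of the controls enclosed that of the ethanol-treated mice. The difference was -0.043 (standard error 0.049, adjusted p = 0.585 by limma). Traf6 probe 1, which reports the ubiquitin ligase that passes the signal to IKK, ranged from 7.98 to 8.43 (median 8.21) and from 8.07 to 8.27 (median 8.13). The control median was exceeded by 16 of 20 ethanol-treated mice and the highest control by 7. The difference was 0.066 (standard error 0.039, adjusted p = 0.241 by limma), which did not pass. Traf6 probe 1 also varied little between mice, with a within-group SD of 0.094, at percentile 4.46 among tested probes, where the median probe had 0.141.

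Ikbkb, the kinase subunit of IKK used by this pathway, ranged from 7.37 to 7.93 (median 7.66) in ethanol-treated mice and from 7.42 to 8.16 (median 7.77) in controls. The control median was exceeded by 2 of 20 ethanol-treated mice, and the ranges overlapped from 7.42 to 7.93. The difference was -0.12 (standard error 0.053, 95% confidence interval -0.23 to -0.012, adjusted p = 0.113 by limma). Nfkbia ranged from 8.19 to 8.66 (median 8.49) and from 8.28 to 8.76 (median 8.47). Here 12 of 20 ethanol-treated mice lay above the control median while the mean was lower, with a difference of -0.060 (standard error 0.052, adjusted p = 0.451 by limma).

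Of the NF-kB subunits, Rela carries the activating domain. Its log2 value ranged from 8.98 to 9.34 (median 9.19) in ethanol-treated mice and from 8.64 to 9.28 (median 9.10) in controls, and C66 was the lowest. The control median was exceeded by 17 of 20 ethanol-treated mice, and the highest control by 2. The difference was 0.12 (standard error 0.046, 95% confidence interval 0.028 to 0.21, adjusted p = 0.0610 by limma), and without C66 it was 0.082 (adjusted p = 0.157 by limma). Nfkb1, which gives the p50 subunit, ranged from 7.56 to 8.24 (median 7.88) and from 7.75 to 8.14 (median 7.96). Ethanol-treated mice were spread beyond the controls on both sides, with 3 above the highest control and 2 below the lowest. The difference was -0.062 (standard error 0.053, adjusted p = 0.450 by limma).

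**Figure D2:**
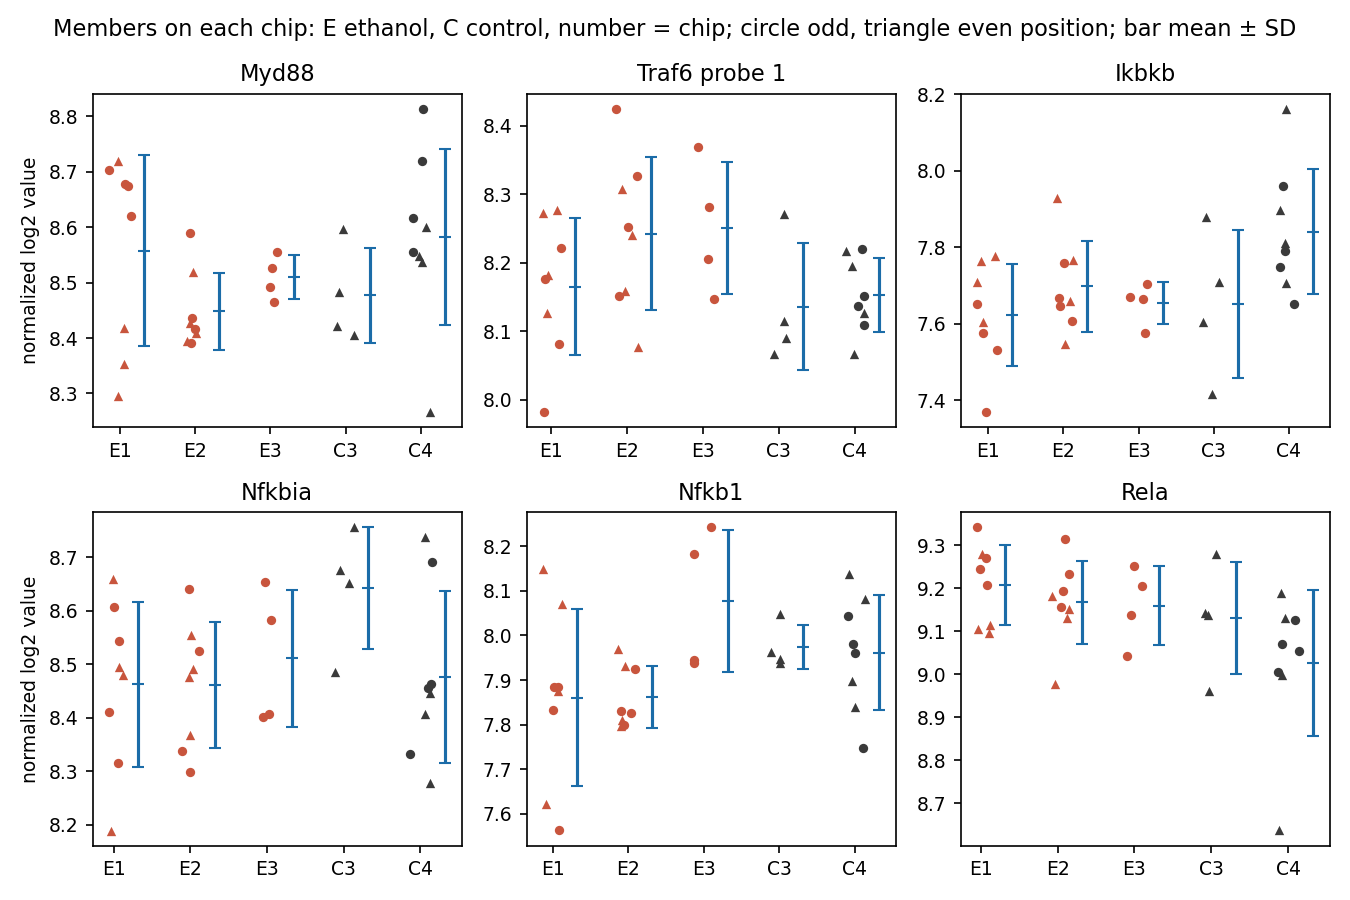
Normalized log2 value of the 6 tested members (separate vertical scale for each) in ethanol-treated (E, red) and control (C, dark grey) mice on chips 1 to 4, with circles for odd and triangles for even positions and blue bars for mean ± SD. Groups overlap in every panel, and the low point of Rela on chip 4 is C66 at 8.64.

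Chip 3 was the only chip with both groups, so the comparison was repeated there. Of the 6 members, 0 passed an FDR of 1% or of 10% by limma, where 2.89% and 15.8% of all probes did, and 0 had an unadjusted p below 0.05, where 26.6% did. With 8 arrays the 95% confidence intervals of the members were wider, from -0.30 to 0.27, and that of each member held its difference over all 32 arrays. For Rela, the 4 ethanol-treated mice had 9.25, 9.04, 9.21 and 9.14 and the 4 controls 9.28, 9.14, 9.14 and 8.96. The groups were interleaved and the difference was 0.029. Leaving out each of the 8 arrays in turn moved it from -0.027 to 0.079. For Ikbkb, the ethanol-treated mice had 7.70, 7.67, 7.58 and 7.66 and the controls 7.42, 7.61, 7.88 and 7.71. The controls enclosed the ethanol-treated mice and the difference was 0.0021. Traf6 differed by 0.11, Nfkb1 by 0.10, Myd88 by 0.033 and Nfkbia by -0.13, with adjusted p of 0.327 to 0.991 for all 6 members by limma.

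On chip 3 treatment coincided with odd or even position. The difference between odd and even positions was therefore measured on the other chips (1, 2 and 4), each of which held a single group, with chip as a block and 12 arrays of each kind. Of the members, 0 passed an FDR of 1% (2.96% of all probes) and 1 an FDR of 10% (20% of all probes) by limma, and 3 had an unadjusted p below 0.05 (28.3% of all probes). Myd88 was higher at odd positions by 0.14 (standard error 0.051, adjusted p = 0.0583 by limma), and by 0.12 without C66 (adjusted p = 0.104 by limma). Rela differed by 0.10 and Ikbkb by -0.11 (adjusted p = 0.164 and 0.148 by limma), and without C66 by 0.069 and -0.12. Traf6 and Nfkbia differed by -0.0012 and 0.0032. With position as the only covariate, the differences between groups were 0.11 for Rela (adjusted p = 0.107 by limma) and -0.10 for Ikbkb (adjusted p = 0.178 by limma), and no member changed direction. With chip as a fixed block and position in 1 fit, the differences between groups were -0.073 for Rela, 0.12 for Ikbkb, 0.12 for Traf6, -0.11 for Myd88, -0.13 for Nfkbia and 0.18 for Nfkb1, with adjusted p of 0.640 to 0.858 by limma.

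**Figure D3:**
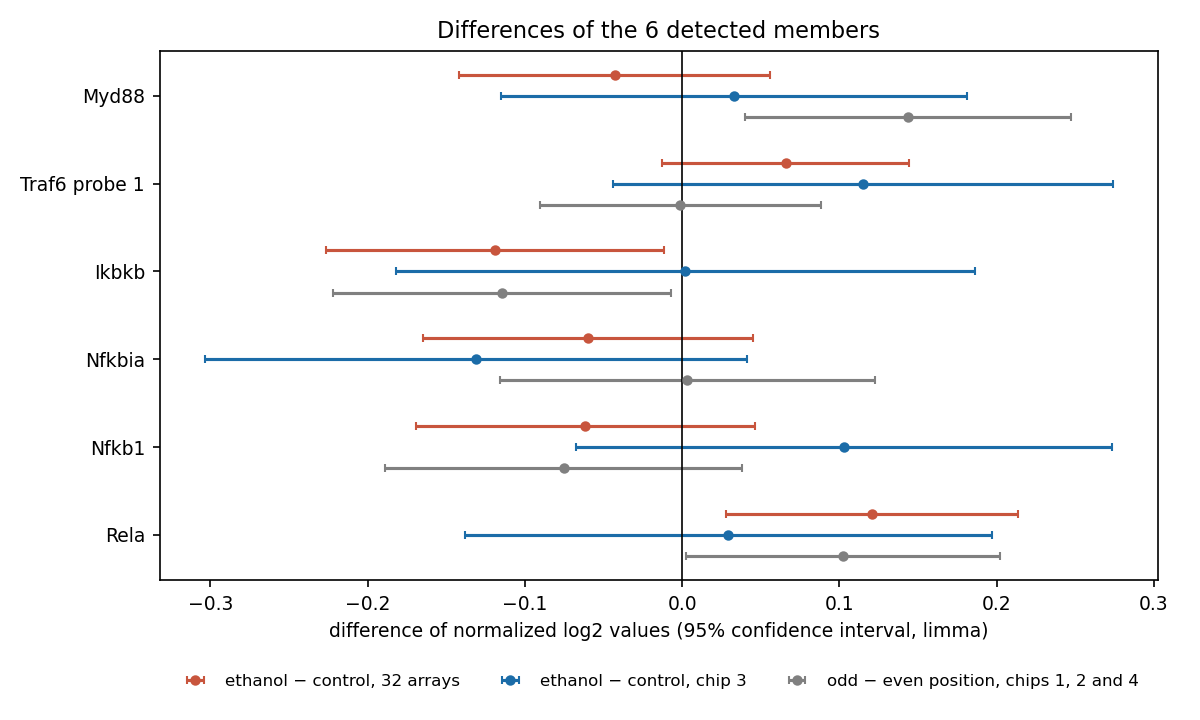
Differences of the 6 tested members on the log2 scale with 95% confidence intervals, for ethanol minus control on 32 arrays (red), on chip 3 (blue) and for odd minus even positions on chips 1, 2 and 4 (grey). For Rela and Ikbkb the red and grey points lie on the same side of 0 and the blue point near 0, at 0.029 and 0.0021.

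Holding position fixed, 4 differences of means could be formed between groups on different chips. Traf6 was higher in ethanol-treated mice in 4 of 4 (0.047 to 0.096) and Myd88 lower in 4 of 4 (-0.17 to -0.035). Rela was higher in 3 of 4 and was -0.0012 in the fourth, between even positions of chips 1 and 2 and controls of chip 3. Ikbkb, Nfkbia and Nfkb1 were each lower in 3 of 4. These sets share arrays and carry no test. Chips also differed within 1 group. In ethanol-treated mice, chip 1 minus chip 2 was 0.11 for Myd88 and -0.077 for Traf6. Controls of chip 3 and chip 4 differed at even positions by -0.011 for Myd88 and -0.015 for Traf6. These controls also differed by -0.24 for Ikbkb, 0.18 for Nfkbia and 0.14 for Rela. Without C66 the values for Ikbkb, Nfkbia and Rela became -0.27, 0.15 and 0.024. Among the 4 differences, that between even positions of chips 1 and 2 and chip 4 was then 0.023 in place of 0.14 for Rela and 0.026 in place of 0.054 for Traf6. This setting was added after the values were seen. Without chip 3, 0 members passed an FDR of 1% (11.6% of all probes) and 2 one of 10% (31.9% of all probes) by limma, with -0.18 for Ikbkb (adjusted p = 0.0289 by limma) and 0.16 for Rela (adjusted p = 0.0336 by limma).

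Correlation between the tested members across mice was also described. Over the 32 arrays, after centring within each group and chip, the 15 pairs of tested members had Pearson correlations from -0.39 (Nfkb1 and Rela) to 0.40 (Ikbkb and Nfkb1), with a median of 0.12. These are descriptions over arrays that share chips and normalization. The median bead error of the 6 probes was 0.066 to 0.083 on the log2 scale, beside within-group SDs of 0.094 to 0.15. Measurement error of this size pulls correlations towards 0, and values for pairs of other genes are not given here. Whether the members vary together was therefore not settled. Rela and Traf6 correlated at 0.38, and Ikbkb and Nfkbia at 0.30. Among 7925 other genes, the closest to each member by the same measure reached 0.64 to 0.76. Each of these is the highest of 7925 values, so it cannot be set against the 15 pairs, which were not selected. For Rela the closest genes were Ap1m1 (0.70) and Abi3 (0.69), after a probe whose symbol in the table is a bare number (0.72). For Nfkb1 they were AA536749 (0.76), Snapc4 (0.74) and LOC100044204 (0.72). For Nfkbia they were BC026585 (0.65), Traf4 (0.61) and Sh3pxd2b (0.58), for Ikbkb LOC100043391 (0.70), Sez6 (0.68) and Scn3b (0.66), for Traf6 9130221H12Rik (0.64), Ppp4r4 (0.61) and Psmc2 (0.57), and for Myd88 Cldn9 (0.70), Aplp2 (0.67) and Gmip (0.66).

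Around the 10 members, 86 other genes of the pathway were listed, of which 83 were on the array and 37 were tested. The 9 other receptor genes on the array, all Toll-like receptors but Cd180, were not tested, and none was detected on more than 5 arrays. Among 16 target genes, 4 were tested, and Tnf, Il1b, Il6, Ccl2, Ccl5, Cxcl10, Il1a, Nos2, Ptgs2 and Birc3 were detected on 0 arrays. By the brightest tested probe of each gene, 0 genes passed an FDR of 1% upwards and 3 downwards by limma, Traf3, Tnip1 and Gadd45b. These are 8.11% of the 37 genes, beside 7.85% of all 7926 genes (3.03% up and 4.82% down). At an FDR of 10% the counts were 4 up and 6 down, 27.0% of the genes beside 24.6% of all (10.3% up and 14.4% down). The median difference was -0.016.

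Traf3, a relative of Traf6 that steers the receptors towards interferon genes and restrains non-canonical NF-kB, ranged from 9.33 to 9.95 (mean 9.64) in ethanol-treated mice and from 9.64 to 10.38 (mean 10.01) in controls. All 20 ethanol-treated mice lay below the control median. Traf3 differed by -0.36 (standard error 0.069, adjusted p = 4.7e-04 by limma), and its second tested probe by -0.33 (adjusted p = 0.0010 by limma). The arrays of chip 3 gave -0.13 (adjusted p = 0.432 by limma), the difference between odd and even positions was -0.21 (adjusted p = 0.0178 by limma), and with chip and position in the fit the difference between groups was 0.080. With position as the only covariate it was -0.33 (adjusted p = 8.1e-04 by limma).

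Tnip1 encodes a binding partner of the deubiquitinase A20 that damps the pathway. It ranged from 8.52 to 9.03 (median 8.79) in ethanol-treated mice and from 8.84 to 9.29 (median 9.03) in controls, with 1 of 20 ethanol-treated mice above the control median. The difference was -0.24 (standard error 0.050, adjusted p = 9.9e-04 by limma), while its second tested probe gave -0.078 (adjusted p = 0.154 by limma). Chip 3 alone gave -0.41 for the brighter probe (adjusted p = 0.0060 by limma) and -0.073 for the second. For the brighter probe the fit with chip and position gave -0.31 (adjusted p = 0.246 by limma). Gadd45b, a stress-response gene and NF-kB target, ranged from 7.28 to 7.77 (median 7.56) and from 7.50 to 8.12 (median 7.80), with 0 of 20 above the control median. Gadd45b differed by -0.23 (standard error 0.053, adjusted p = 0.0021 by limma). The 8 arrays of chip 3 gave -0.042 (adjusted p = 0.792 by limma), and the fit with chip and position a value of -2.3e-06.

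At an FDR of 10%, the kinase genes Chuk and Tbk1 passed, with differences above 0 where that of Ikbkb was below it. Chuk, the other catalytic IKK subunit, differed by 0.20 (adjusted p = 0.0160 by limma), and 18 of 20 ethanol-treated mice exceeded its control median. Tbk1, an IKK-related kinase, differed by 0.12 (adjusted p = 0.0405 by limma). Cyld, a deubiquitinase, and Cnpy3, a receptor chaperone, differed by 0.13 and 0.21. Rnf31, of the linear ubiquitin ligase, Nkiras2, an inhibitor of NF-kB, and Tollip, an inhibitor of the receptor step, differed by -0.13, -0.14 and -0.10. The second probe of Tollip gave 0.28 (adjusted p = 0.0354 by limma), and the probes disagreed, whereas on chip 3 they gave -0.17 and -0.34. The probes of Tab1, listed under its older symbol, gave 0.064 and -0.22 (adjusted p = 0.0053 by limma for the latter). On chip 3 the 7 genes gave 0.083 for Chuk, 0.075 for Tbk1, 0.22 for Cyld, 0.11 for Cnpy3, -0.34 for Rnf31, -0.087 for Nkiras2 and -0.17 for Tollip. At an FDR of 10% on that chip, 7 of the 37 genes passed, where 15.8% of all probes did. Rnf31 and Cyld were among them (adjusted p = 0.0150 and 0.0770 by limma). With chip and position in the fit, 0 of the 37 genes passed an FDR of 10%. When arrays were scaled to 1 median and not quantile-normalized, which moved the median of all probes to 0.060 and left 188 calls (176 up, 12 down) in place of 833 (373 up, 460 down), 0 of the 37 genes passed an FDR of 1%.

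**Figure D4:**
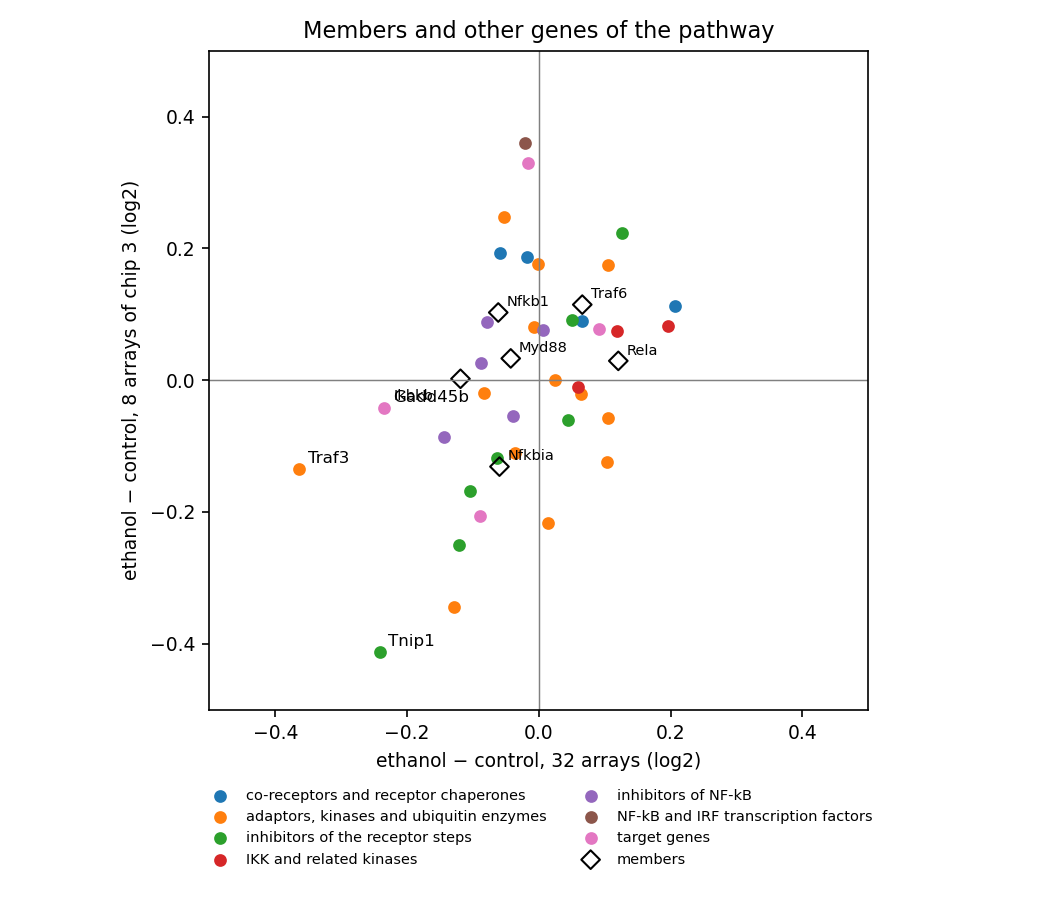
Difference between ethanol-treated mice and controls on the log2 scale over 32 arrays (horizontal) and on chip 3 (vertical) for the 37 tested pathway genes, coloured by role, and the 6 tested members (diamonds). The 8 arrays of chip 3 are part of the 32. Of the 3 named genes Tnip1, shown by its brighter probe, lies far from 0 on both axes, at -0.24 and -0.41.

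Of the neuronal markers on the array, 6 of 9 passed the presence filter, and of choroid plexus markers 1 of 6. Microglial markers were taken because microglia carry the receptors. Of 13 markers, 11 were tested, and Itgam was detected on 0 arrays. Of the 11, 0 passed an FDR of 1% by limma and 1 passed an FDR of 10%, where 24.6% of all genes did. Their median difference was -0.078. The score of the list, the mean of its centred and scaled genes on an array, ranged from -0.94 to 0.75 (median -0.25) in ethanol-treated mice and from -0.41 to 0.78 (median 0.33) in controls. On chip 3, the only chip with both groups, the median difference of the microglial list was -0.012. The lower microglial score over all arrays stands beside the lower normalized Cd14, and its part in that result was not tested. Markers of blood and peripheral leukocytes had 4 tested genes of 12, 0 of which passed an FDR of 1% or of 10%, with a median difference of 0.00028. At an FDR of 1%, 1 of 9 astrocyte markers was higher and 2 of 6 neuronal and 1 of 8 endothelial markers were lower. Of 9 oligodendrocyte markers 0 passed, and of all genes 7.85% did. At an FDR of 10%, 2 of 9 astrocyte, 3 of 6 neuronal, 4 of 8 endothelial and 1 of 9 oligodendrocyte markers passed. On chip 3 the oligodendrocyte markers had a median difference of -0.38. There 7 of the 9 passed an FDR of 10%, where 15.8% of all probes did. At an FDR of 1% on chip 3, 2.89% of all probes passed. There 2 of 9 astrocyte, 2 of 6 neuronal, 1 of 8 endothelial and 1 of 9 oligodendrocyte markers passed. So did 1 of 3 olfactory bulb markers (list median 0.23) and the 1 tested choroid plexus marker, which differed by 0.47. Of the microglial and leukocyte markers, 0 passed. The part of these lists in the differences of Tnip1 and the members on that chip was not tested.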

How the data were processed

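The authors deposited the BeadChip data without normalization. The deposited intensities are mean bead signals on a linear scale. Beside each, the authors deposited a detection p-value, set against control beads with no target, and other values, a bead count and a standard error of the bead signal, used for precision only. The software that summarized the beads is not given in the sources used here. Per the labels and methods, the authors used lumi and limma. The methods state that every RNA extraction batch mixed the groups, and the labels do not tie arrays to batches.

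From these signals, a variance-stabilizing transform after lumi's was computed and followed by quantile normalization, in R 4.3.3. Probes present (p below 0.01) in 24 or more of the 32 arrays, or 75%, a filter the methods give for networks only, entered limma 3.58.1 with no covariate. Calls were made at an FDR below 1%. Named genes were all member probes, pathway genes passing that threshold and the 3 genes most correlated with each member; others were named after their values were seen. A gene with several tested probes was given by the brightest. The fit was tested on simulated data. Figures were drawn with matplotlib 3.10.9. The members, gene lists and tests were chosen with earlier results of these data known. Alternatives covered the transform, background, scaling, filter, chip, position, array weights, C66 and threshold. The number of arrays limits the precision.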

Additional observations from a re-analysis of the deposited data

How the results depend on the processing

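No paired analysis was possible because the ethanol-treated and control mice share no replicate numbers. Of the members, 0 passed an FDR of 1% in the comparison of all arrays under any of the 12 other settings, in that on chip 3 (0 to 0 when each array was left out) or in that between positions; at an FDR below 10% the counts became 1 for all arrays, 0 for chip 3 and 1 for positions. Traf6 kept its direction under the 12 settings (0.051 to 0.13). With median scaling, Myd88, Nfkbia and Nfkb1 turned to 0.026, 0.016 and 0.0030, below the shift of 0.060 of all probes. With chip as a fixed block, Myd88, Ikbkb and Nfkb1 turned to 0.033, 0.0021 and 0.10, and with position added Ikbkb, Nfkb1 and Rela to 0.12, 0.18 and -0.073. On chip 3 alone, median scaling gave -0.0067 for Myd88, -0.010 for Ikbkb and -0.0060 for Rela. Leaving out each array of chip 3 gave -0.077 to 0.078 for Ikbkb, -0.027 to 0.079 for Rela, 0.0095 to 0.073 for Myd88, 0.075 to 0.16 for Traf6, -0.18 to -0.093 for Nfkbia and 0.047 to 0.15 for Nfkb1. Between positions, Traf6 turned to 0.016 with median scaling, and Nfkbia to -0.0036 without C66, a setting chosen after seeing the data, as were the fits of Cd14.

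Of the pathway genes, 3 passed, and 0 with median scaling, 0 with chip as a fixed block, 1 (Tnip1) with chip as a random block, 0 with chip and position, 5 (2 of the 3 among them) on chips 1, 2 and 4 only, 4 (the 3 and Chuk) with position as the only covariate and 10 at an FDR below 10%. Taking the probe with the lowest p, also chosen after seeing the data, gave 4. Gadd45b had no value among probes detected on all arrays. With chip as a fixed block Tnip1 was -0.41 (adjusted p = 0.0147 by limma), and with a random block Traf3 was -0.31 (adjusted p = 0.0256 by limma). Traf3 turned to 0.080 with chip and position. Over all probes, 833 passed, and 188 with median scaling, 17 with chip as a fixed block, 70 as a random block and 2 with chip and position. The causes were not tested. Signal over background limits Tlr3, Tlr4, Cd14 and Irak1, which were not detected on most arrays.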
